A study of Homo sapiens with 9 samples.

Results

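The replication-dependent histone H3 genes examined here are H3C1, H3C2, H3C3, H3C4, H3C6, H3C7, H3C8, H3C10, H3C11 and H3C12, 10 genes in a series in which 21986 genes held a merged peak in some library. They were chosen by symbol, and a peak was assigned to a gene when it overlapped the histone mRNA on the gene's strand. The data come from antibody-barcode eCLIP (ABC), in which UV light at 254 nm links RNA-binding proteins (RBPs) to RNA in living cells, and a DNA barcode carried by each antibody is ligated to the RNA held next to it. The read's barcode then names the antibody. Singleplex ABC was made for the Stem-Loop Binding Protein (SLBP) in K562, a line from a chronic myelogenous leukemia, with 2 replicates, and for RBFOX2 in HEK293T, a line from human embryonic kidney that the study's text calls HEK293XT, also with 2 replicates. In 10plex ABC, antibodies to RBFOX2, PUM2, DDX3, FAM120A, ZC3H11A, LIN28B, SF3B4, EIF3G, PRPF8 and IGF2BP2 shared a tube, with 3 pools in K562 and 2 in HEK293T, which gives 54 libraries in 9 samples. The labels give no drug treatment or engineered allele, and nothing states that replicates were separate cultures. The p-values over samples therefore measure the spread between these samples. Those over antibody labels place an antibody among the others of its pools.

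Replication-dependent histone mRNAs are made mainly in S phase and are the metazoan mRNAs that lack a poly(A) tail. Their 3′ end is a conserved stem-loop, behind which the pre-mRNA is cut by a complex that holds the U7 snRNP. SLBP binds the stem-loop and stays with the mRNA through export and translation, until the mRNA is degraded when DNA synthesis stops. H3 and H4, with H2A and H2B, form the core of the nucleosome around which DNA is wrapped.

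All 10 members lie on chromosome 6 (GRCh38, GENCODE release 44), have a single exon and a coding sequence (CDS) of 411 nt, and encode the same protein of 136 amino acids. Their CDSs are not the same: the 45 pairs were identical at 81.0% to 88.1% of positions (median 85.4%). Between 90.3% and 100% of the 30-nt windows of each CDS occurred once in the genome, and 93.3% or more of those over a stem-loop, so most fragments of that length can be told apart. The 16-nt stem-loop was found without a mismatch in each member, 27 to 46 nt after the stop codon and 3 to 11 nt before the annotated end of the mRNA. The stem-loops below, from the genome sequence, are shown with 7 nt on either side because SLBP peaks are placed against them. Capitals mark the stem-loop. H3C2, H3C10 and H3C4 held the most SLBP reads, and H3C6 and H3C8 are the members with a stem-loop of their own. The remaining 8 members, H3C2 among them, have the same stem-loop.

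H3C2, chr6:26031597-26031612, minus strand: acccaaaGGCTCTTTTCAGAGCCacccact
H3C10, chr6:27810516-27810531, plus strand: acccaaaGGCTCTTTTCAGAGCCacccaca
H3C4, chr6:26196789-26196804, minus strand: acccaaaGGCTCTTTTCAGAGCCaaccacc
H3C6, chr6:26225596-26225611, plus strand: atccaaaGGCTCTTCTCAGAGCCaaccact
H3C8, chr6:26270923-26270938, minus strand: ttaaaaaGGCTCTTTTAAGAGCCgcctact

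Before the results, the depth and the labels need a word. The reads of a library's merged peaks summed to 84658 and 19484 for SLBP, 4414990 and 2185326 for RBFOX2 singleplex, 13351 to 2189880 in 10plex K562 and 21728 to 2596930 in 10plex HEK293T. A field of the HEK293T pools' labels gives K562 as the cell line. In the K562 pools, globin genes and other K562 markers held a peak in all 30 libraries (mean 7 to 8 of 9 markers per pool), against 1 library in each HEK293T pool, and markers of HEK293 had means of 3.3 and 3.9 of 5 in the HEK293T pools against 0.2 to 0.3 in K562. The SLBP libraries held 4 and 2 of the 9 K562 markers and 1 of the 5 HEK293 markers each. The IGF2BP2 library of 10plex K562 replicate 1 stood apart on the histone genes, as described below. It moved the H3 share of its pool and the position of the K562 reads, and these values are given with and without it. Leaving it out was chosen after the data were seen.

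Of the 10 members, 8 held a merged peak in any library. H3C8 and H3C11 held none, and H3C6 held only 1 peak of 3 reads, over its stem-loop, in RBFOX2 of 10plex HEK293T replicate 2. There were 262 merged peaks on the members, in 49 of the 54 libraries, and no peak on the opposite strand of the mRNAs. The 5 libraries without a peak were PUM2 in all 3 K562 pools, EIF3G in K562 replicate 1 and ZC3H11A in K562 replicate 3. Lists of merged peaks began at 3 reads, so a member without a peak may still have held reads.

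SLBP placed far more of its reads on the H3 genes than any other antibody. The share of the reads in merged peaks that lay on the members was 1.92% in replicate 1 (1623 reads, 95% Clopper-Pearson interval 1.83% to 2.01%) and 6.28% in replicate 2 (1224 reads, 5.95% to 6.63%). The intervals take every count as a separate read, though a read that crosses touching peaks counts in each. They are therefore too narrow, and they leave out the spread between samples. RBFOX2 singleplex had 0.00575% and 0.00837%. The mean over the 10 libraries of a pool was 0.0156%, 0.0119% and 0.0127% in the K562 pools, and 0.00740% in replicate 1 without its IGF2BP2 library. Both SLBP values lay above every other library, the lower of them 123 times the highest K562 pool mean.

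In the test over samples, SLBP (4.10% ± 3.09, SD, n = 2) was 4.09 percentage points above the K562 pools (0.0134% ± 0.00194, SD, n = 3), with an exact two-sided permutation p of 0.1, the smallest that this design allows. Against RBFOX2 singleplex (0.00706% ± 0.00185, SD, n = 2), the difference was also 4.09 points, with the smallest exact permutation p of 0.333. The antibody and the cell line differ together in the latter comparison, and the antibody and the singleplex format in the former, so that they cannot be told apart. Without the IGF2BP2 library of replicate 1, the K562 pools had a mean of 0.0107% and the difference and its exact permutation p were 4.09 points and 0.1. The gap between SLBP replicates narrowed when each run of touching peaks was counted once by its highest read number, to 3.14% (1581 of 50391 reads) and 4.08% (481 of 11800). In replicate 1 the total of the library fell and the H3 reads hardly did, and in replicate 2 both fell.

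**Figure D1:**
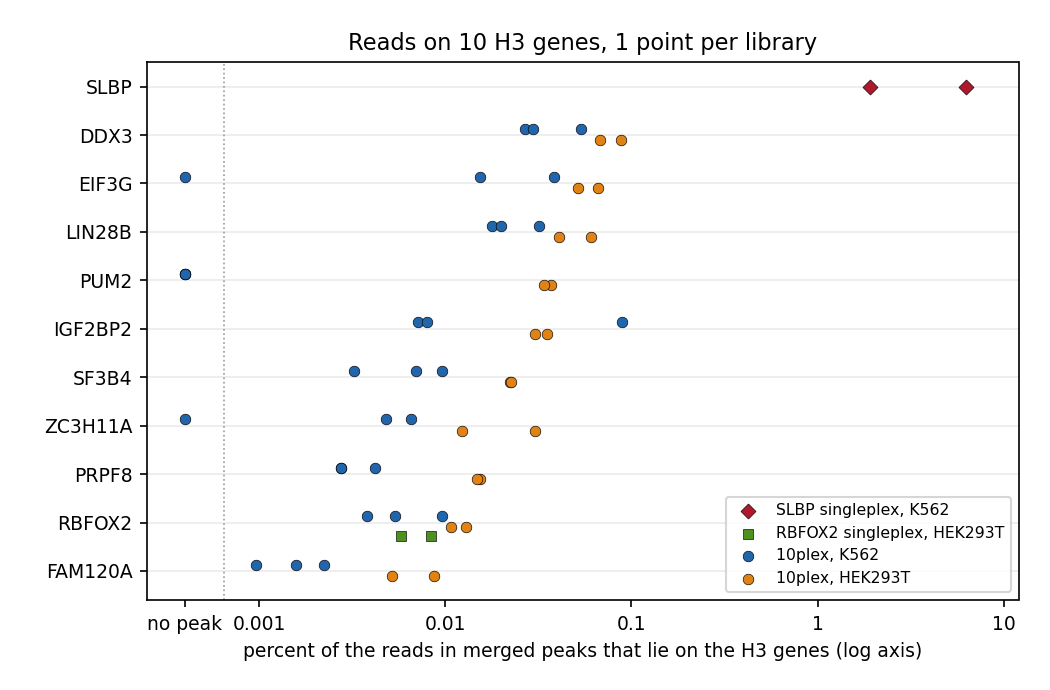
Percent of the reads in merged peaks that lie on the 10 H3 genes (log axis), with 1 point per library, grouped by antibody and coloured by experiment; libraries without an H3 peak sit at the left edge. The 2 SLBP libraries lie at 1.92% and 6.28%, and the highest of the others, IGF2BP2 in K562 replicate 1, at 0.0892%.

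The SLBP reads were unevenly spread over the paralogs. SLBP peaks fell on 7 members in replicate 1 and 6 in replicate 2. H3C2 alone held 67.3% and 78.0% of the SLBP reads on H3 genes, and 69.1% and 66.9% with touching peaks counted once. H3C10 held 13.5% and 14.6% with touching peaks counted once, and H3C4 held 10.0% and 10.4%. H3C7 (3.73% and 4.16%) and H3C12 (2.72% and 2.49%) followed, and H3C1 and H3C3 held at most 1.46%. With touching peaks counted once, the first 5 stood in the same order in both replicates.

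For each gene the peak with the most reads is described next, with its log2 fold over the external background, which is the deposited fold of the share of reads in the peak over that in RNA from another source. The background was recovered as at most 1 read at every SLBP peak on a member, and an empty background counts as 1 read in the fold. For H3C2, whose P was at its limit, that 1 read is the smallest number that the fold allows. For the other genes, the folds of these peaks therefore follow their reads. Enriched peaks are those with a fold of more than 8 at a P of less than 0.001, which are the limits of the study.

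H3C2 held a peak of 1092 reads in replicate 1 and one of 322 reads in replicate 2, with log2 folds of 13.33 and 13.65. Their P was at the deposited limit of 400 on the −log10 scale, so these read numbers are the lowest whole numbers behind the folds. The replicate 1 peak (chr6:26031594-26031634) began 22 nt before the stem-loop and ended 3 nt after it. In replicate 2 the same stretch was covered by 3 touching peaks of 315, 322 and 318 reads.

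H3C10 followed, with 188 and 46 reads and log2 folds of 10.80 and 10.85. Its peaks ran 20 and 11 nt past the annotated end of the mRNA. H3C4 held 158 and 42 reads, with log2 folds of 10.55 and 10.72, and its replicate 1 peak ran 11 nt past the mRNA's end. The values of H3C10 and H3C4 lay close together, with means of 10.82 ± 0.04 and 10.63 ± 0.12 (SD, n = 2), and H3C10 was the higher in both replicates.

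H3C7 had 45 and 20 reads and log2 folds of 8.73 and 9.64. In replicate 2 its named peak was a 3-nt peak just after the stem-loop, tied in reads with a peak that covered it. H3C12 had 30 and 9 reads, with log2 folds of 8.15 and 8.49. These 5 genes held an enriched peak in both replicates.

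H3C3 had a 3-read peak in replicate 1 that was not enriched (log2 fold 4.83) and an enriched peak of 7 reads in replicate 2 (log2 fold 8.13). H3C1 held an enriched peak of 7 reads in replicate 1 (log2 fold 6.05) and none in replicate 2. H3C6, H3C8 and H3C11 held no SLBP peak in either replicate. H3C11 has the same stem-loop as H3C2, and H3C6 and H3C8 have the variants printed above.

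Of the SLBP peaks on members, 11 of 12 in replicate 1 were enriched, where 37.8% of all merged peaks in the library were. In replicate 2 it was 16 of 16, beside 99.9% of all peaks, so that the limits separate nothing there. Of all genes with an SLBP peak in either replicate, 21.2% had one in both, and 6 of the 7 members with an SLBP peak did. SLBP had 6 members with an enriched peak in each replicate, of the 7 and 6 with a peak. Over all genes with an SLBP peak, 46.4% held an enriched one in replicate 1 and 99.9% in replicate 2, where the call again separates nothing. The K562 pools had means of 1.4, 1.9 and 1.5 members per library (difference 4.4 genes, exact two-sided permutation p = 0.1, the smallest possible with 2 against 3 samples). The libraries compared here differ in depth and in the background behind the fold.

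SLBP peaks gathered at the stem-loop. Reads in peaks that overlapped the stem-loop were 93.8% of the SLBP reads on members in replicate 1 (Clopper-Pearson 92.6% to 95.0%) and 69.8% in replicate 2 (67.1% to 72.3%). These intervals have the same limit as those of the H3 share. The remainder in replicate 2 was in part the H3C2 peak of 315 reads, which lay on the 5′ side of the stem-loop and touched the peak over it. With touching peaks counted once the shares were 96.3% and 88.6%. Over enriched peaks the median centre lay at −11.5 nt from the centre of the stem-loop in replicate 1 (11 peaks) and at −9.25 nt in replicate 2 (16 peaks), where negative values are on the 5′ side, with a mean of −10.4 ± 1.59 nt (SD, n = 2). Measured from the stop codon, the medians were 30.5 and 29.25 nt after it. With 1 peak per gene, that with the most reads, the median was −5.38 nt.

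A minority of SLBP peaks lay in the CDS. They held 93 of 2847 reads (3.27%), on H3C1, H3C4, H3C7, H3C10 and H3C12, and 91.4% of these reads fell in the last 137 nt of the CDS. None fell in the first 137 nt. H3C2, the member with the most SLBP reads, had no SLBP peak in its CDS in either replicate.

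**Figure D2:**
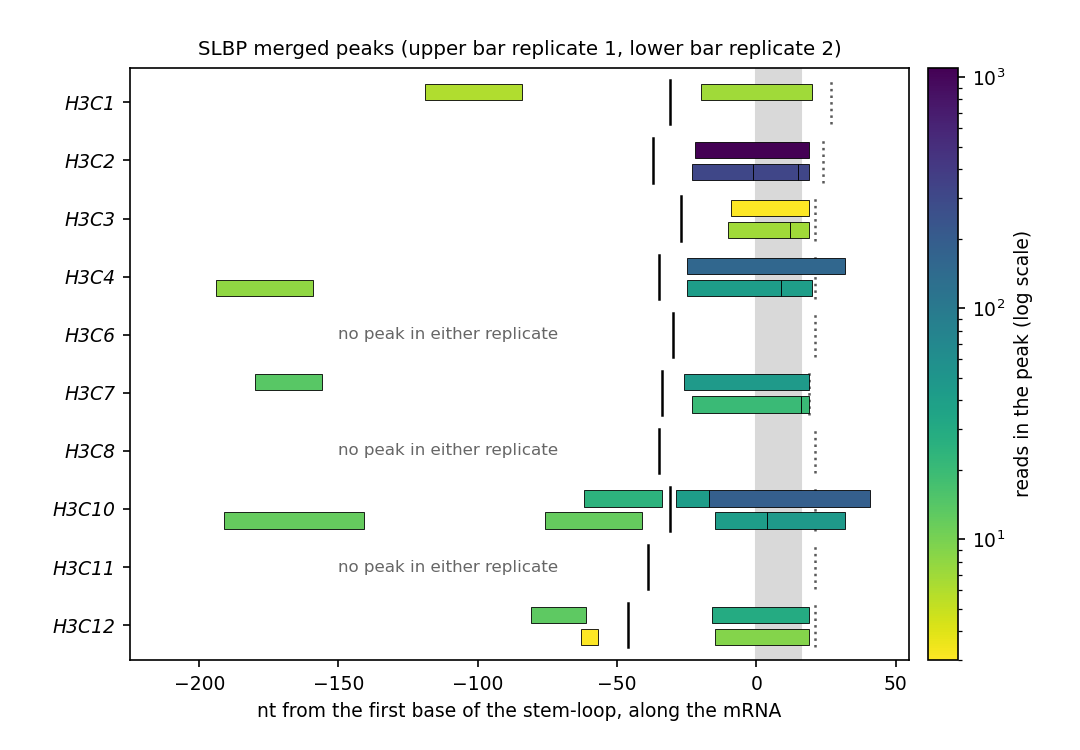
SLBP merged peaks on each H3 gene, by distance in nt from the first base of the stem-loop (grey band), with replicate 1 above and replicate 2 below and the colour giving the reads of the peak on a log scale; solid ticks mark the end of the stop codon and dotted ticks the end of the mRNA. Most peaks lie over the stem-loop or just before it in the 7 members bound, and H3C6, H3C8 and H3C11 have none.

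In 10plex ABC the H3 reads lay elsewhere on the mRNA. In HEK293T 99.5% of the 2985 reads in H3 peaks lay in the CDS and 0.101% over a stem-loop. In K562 it was 77.5% and 21.1% of 848 reads, and 94.9% and 3.38% of 680 reads without the IGF2BP2 library of replicate 1. The CDS reads were spread over the first 137 nt (48.4% in K562 and 51.8% in HEK293T) and the middle 137 nt (47.8% and 41.9%), and the last 137 nt held 3.81% and 6.29%. RBFOX2 singleplex had 95.0% of 437 reads in the CDS and 3.89%, in 1 peak of 17 reads on H3C2, over a stem-loop.

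The stem-loop share per K562 pool was 52.6%, 0% and 5.57%. SLBP exceeded the pool mean of 19.4% ± 28.9 (SD, n = 3) by 62.4 points, with an exact two-sided permutation p of 0.2. Without the IGF2BP2 library of replicate 1 the pools' mean was 3.50%, the difference was 78.3 points and p was 0.1, the smallest possible.

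That library held 156 of the 179 stem-loop reads of the K562 pools, out of 168 reads on H3 genes. It had touching peaks of 61 and 62 reads over the stem-loop of H3C2, 16 reads on H3C10, 14 on H3C4 and 3 on H3C7. All were enriched over the complement control (CC), the summed reads of the other 9 antibodies in the pool, with log2 folds of 9.35 and 5.68 on H3C2, 3.72 on H3C10, 6.23 on H3C4 and 5.01 on H3C7. The H3 share of IGF2BP2, a protein that binds and stabilises mRNAs, was 0.0892% in this library and 0.00711% and 0.00798% in the other K562 replicates. In HEK293T it was 0.0354% and 0.0305%, with no read over a stem-loop.

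The same library differed across the replication-dependent histone families. Of its 1809 reads on H1, H2A, H2B, H3 and H4 genes, 77.5% lay in peaks over a stem-loop, on 37 genes. In the other 10plex libraries the share ran from 0% to 13.2%, and in the SLBP libraries it was 81.0% and 84.7%. The members that held its stem-loop reads, H3C2, H3C10, H3C4 and H3C7, were those with the most SLBP reads. What set this library apart was not tested.

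**Figure D3:**
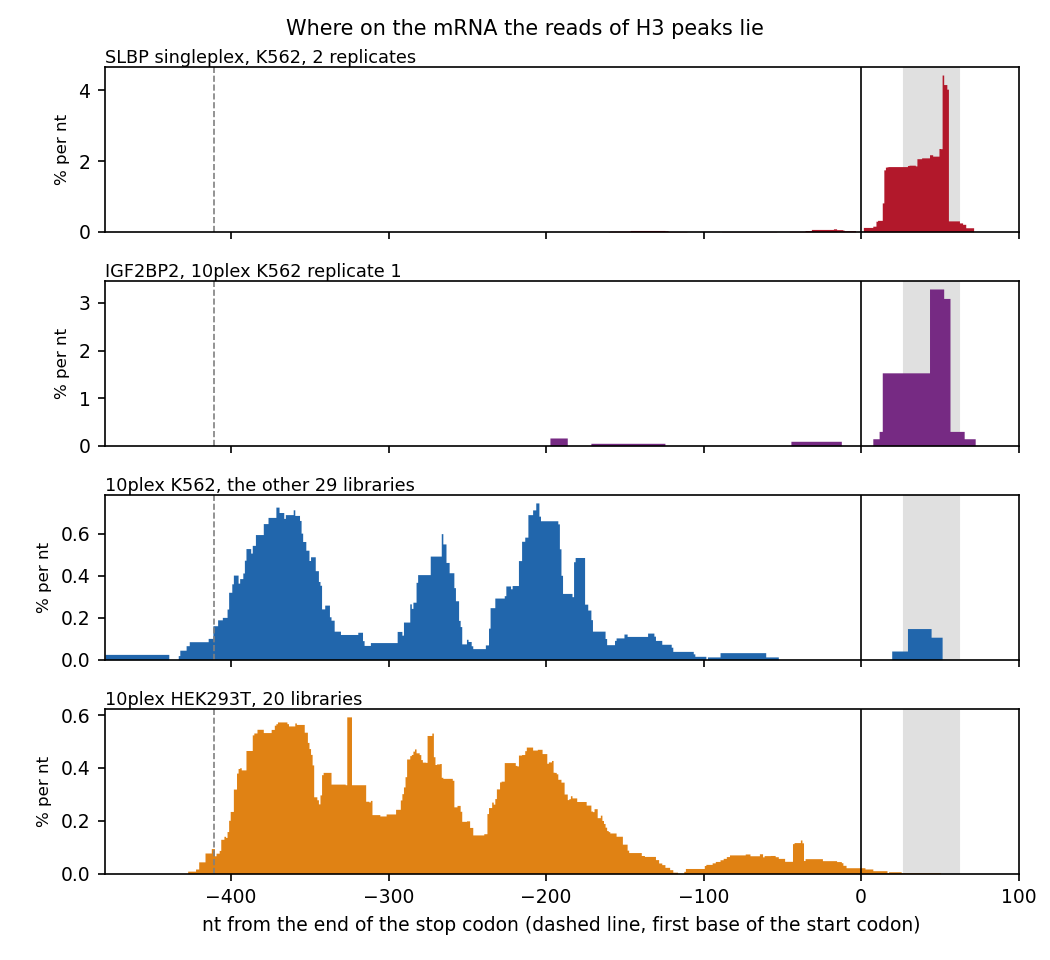
Distribution of the reads of H3 peaks along the mRNA, as percent of reads per nt (each panel has its own scale) against the distance from the end of the stop codon, with each peak's reads spread evenly over its length; the grey band covers the stem-loops of all members and the dashed line is the start codon. SLBP and IGF2BP2 of K562 replicate 1 lie over the stem-loop, while the other 29 K562 libraries and the 20 HEK293T libraries lie mostly in the CDS.

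Among the 10 antibodies of the pools, DDX3, a helicase of translation initiation, had the highest mean share of reads on the H3 genes in HEK293T, and in K562 it lay beside IGF2BP2. In K562 its libraries held 0.0268%, 0.0295% and 0.0533% (mean 0.0365% ± 0.0146, SD, n = 3), and the other 9 antibodies a mean of 0.0108%. It lay above the mean of the others in 3 of 3 pools. IGF2BP2 had a mean of 0.0348% ± 0.0471 (SD, n = 3), above the others in 1 of 3 pools, and it ranked first with enriched peaks alone, with the whole annotated gene span, and without K562 replicate 2 or 3. For DDX3 the exact one-sided permutation of labels within pools gave p = 0.048, and 0.295 after Benjamini-Hochberg adjustment over 10 antibodies. For IGF2BP2 the same permutation gave 0.059, and 0.295 after adjustment. Without the IGF2BP2 library of replicate 1, p for DDX3 was 0.00222 by the same exact permutation and 0.0222 after adjustment. That omission was chosen after the data were seen and removes the library with the highest share of the pools.

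In HEK293T, DDX3 held 0.0875% and 0.0678% (mean 0.0777% ± 0.0139, SD, n = 2) against 0.0284% for the others. It was above them in 2 of 2 pools, with the smallest exact permutation p of 0.01, and 0.1 after adjustment. Thus 0 of 10 antibodies passed in either cell line with all libraries, and 1 in each did before adjustment. EIF3G, a subunit of the initiation factor eIF3, followed in HEK293T with 0.0663% and 0.0515%, and LIN28B, which binds mRNAs and the let-7 precursors, with 0.0609% and 0.0406%. FAM120A had the lowest mean in HEK293T (0.00694%), and PUM2, which had no H3 peak in K562, held 8 and 13 reads in HEK293T, on H3C2 alone.

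DDX3 and EIF3G had a large part of their CDS reads near its start, though not more than every other antibody. DDX3 had 100%, 91.8% and 65.6% of its CDS reads in the first 137 nt in the K562 pools, where the 8 antibodies besides DDX3 and EIF3G together had 14.9%, 36.2% and 43.98%. In HEK293T the values were 69.3% and 55.4% for DDX3 against 49.4% and 45.2%. EIF3G had 100% in both K562 libraries with a CDS peak, which rest on 18 and 7 reads, and 62.7% and 94.4% in HEK293T. Single antibodies reached like values. SF3B4 had 67.9% and 46.9% in HEK293T and 90.0% in K562 replicate 2, ZC3H11A 58.3% and 55.6% in HEK293T and 100% of 7 reads in K562 replicate 2, and FAM120A 54.4% and 59.3% in HEK293T and 100% of 13 reads in K562 replicate 3. LIN28B had 26.9%, 21.3% and 14.3% in K562 and 38.6% and 22.8% in HEK293T. These positions were singled out after their values were seen, and the differences between antibodies were not tested.

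H3C2 was the member with the most reads for each of the 9 antibodies with an H3 peak in K562. It held 69.2% of the 848 H3 reads in the K562 pools and 52.3% of those in the HEK293T pools, and H3C10 held 17.6% and 40.6%. In RBFOX2 singleplex H3C10 held more, 55.4% of the reads against 32.7%. H3C4, which followed H3C10 in SLBP, had 49 reads in the K562 pools and no peak in HEK293T or RBFOX2 singleplex. H3C3, which held an SLBP peak in both replicates, enriched in the second alone, had no peak in any other library.

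The 2 most read members held peaks with nearly every antibody in the HEK293T pools. H3C2 held a peak in all 20 libraries and H3C10 in 18, and 0 of 51 and 0 of 49 of these peaks were enriched over the CC. Below the fold limit, antibodies still differed on H3C2. Its log2 folds over the CC ran from 1.25 to 2.59 for DDX3 and from −1.95 to −1.19 for FAM120A. These differences between antibodies were not tested. Over the external background 126 of the 132 H3 peaks in HEK293T were enriched, where 34.7% of all peaks were. Over the CC it was 8 of 132, beside 13.9% of all peaks. In K562 62 of 82 H3 peaks were enriched over the external background (49.9% of all peaks) and 18 of 82 over the CC (20.5% of all peaks), or 11 of 74 without the IGF2BP2 library of replicate 1. The external background differs between antibodies, so that folds over it are not compared between them here.

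In RBFOX2 singleplex 5 of 12 and 6 of 8 H3 peaks were enriched over the external background, beside 8.63% and 12.5% of all peaks.

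Counting a gene once per library, 48 of 59 pairs of member and library in K562 held a peak enriched over the external background, beside 65.5% over all genes with a peak, and 55 of 59 in HEK293T, beside 67.4%. Over the CC, it was 15 of 59 pairs in K562, beside 37.7% over all genes, and 5 of 59 in HEK293T, beside 34.1%. Of the 15 pairs, 5 came from the IGF2BP2 library of replicate 1.

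The site enriched over the CC in the most pools was that of LIN28B at the start codon of H3C1. In HEK293T it held 21 reads in replicate 1 and 7 in replicate 2, with log2 folds over the CC of 4.21 and 3.03 and centres 4 and 3.5 nt after the first base of the start codon. In K562 it held 6 reads in replicate 2 (log2 fold 6.70, centre at 3.5 nt) and 5 reads in replicate 3 (log2 fold 4.89, centre 3 nt before the start codon), and no peak in replicate 1. In HEK293T LIN28B also had enriched peaks near the stop codon of H3C1, with 11 and 12 reads, log2 folds of 3.53 and 3.22 and centres 9 and 23 nt before the end of the stop codon. These sites were chosen after their values were seen.

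The other CC-enriched peaks, outside the IGF2BP2 library of K562 replicate 1, held 4 to 16 reads. DDX3 had peaks in the start of the CDS of H3C12 in K562 replicates 2 and 3, with 8 and 13 reads and log2 folds of 3.83 and 3.61. It had 2 peaks of 4 reads on H3C4 in K562 replicate 2, 2 peaks of 5 reads on H3C7 in HEK293T replicate 1, and a peak of 16 reads over the stem-loop of H3C2 in K562 replicate 3 (log2 fold 3.14). SF3B4, a component of the U2 snRNP, had 7 reads on H3C4 and 6 on H3C12 in K562 replicate 2. FAM120A had 9 reads on H3C2 in K562 replicate 2, and EIF3G 4 reads on H3C1 in HEK293T replicate 2. LIN28B had 4 reads on H3C12 in HEK293T replicate 2 (log2 fold 3.22), and IGF2BP2 4 reads on H3C7 in K562 replicate 2 (log2 fold 3.53). None of these held in every pool of a cell line.

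More H3 reads and libraries with an H3 peak were found in HEK293T than in K562, in a design of 3 against 2 samples whose smallest exact permutation p is 0.1. The mean share per pool was 0.0156%, 0.0119% and 0.0127% in K562 against 0.0376% and 0.0290% in HEK293T, without overlap (exact two-sided permutation p = 0.1). The K562 replicate 1 value was 0.00740% without its IGF2BP2 library, with an exact permutation p of 0.1. The mean number of members with a CLIPper peak per library was 1.97 ± 0.551 (SD, n = 3) in K562 (1.7, 2.6 and 1.6) and 2.95 ± 0.354 (SD, n = 2) in HEK293T (2.7 and 3.2), also without overlap (exact two-sided permutation p = 0.2). Without that library the K562 mean was 1.84.

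By gene, H3C1 held a peak in 0, 1 and 2 libraries of the K562 pools and in 5 and 7 of those in HEK293T. H3C10 held one in 4 to 6 against 9 and 9, and H3C2 in 8 to 9 against 10 and 10. These 3 of 10 members did not overlap between the cell lines, with HEK293T higher, beside 43.2% of 21261 genes. H3C3, H3C8 and H3C11 held no peak in any pool, so they could not differ, and 3 of 10 is not a lower rate on like terms. No member was higher in every K562 pool, where 4.92% of the 21261 genes were. H3C4 ran from 0 to 5 libraries in K562 against 0 and 0. Depth differed between the pools as given above, and a higher level of an mRNA cannot be told apart from more binding to it in bulk cells.

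**Figure D4:**
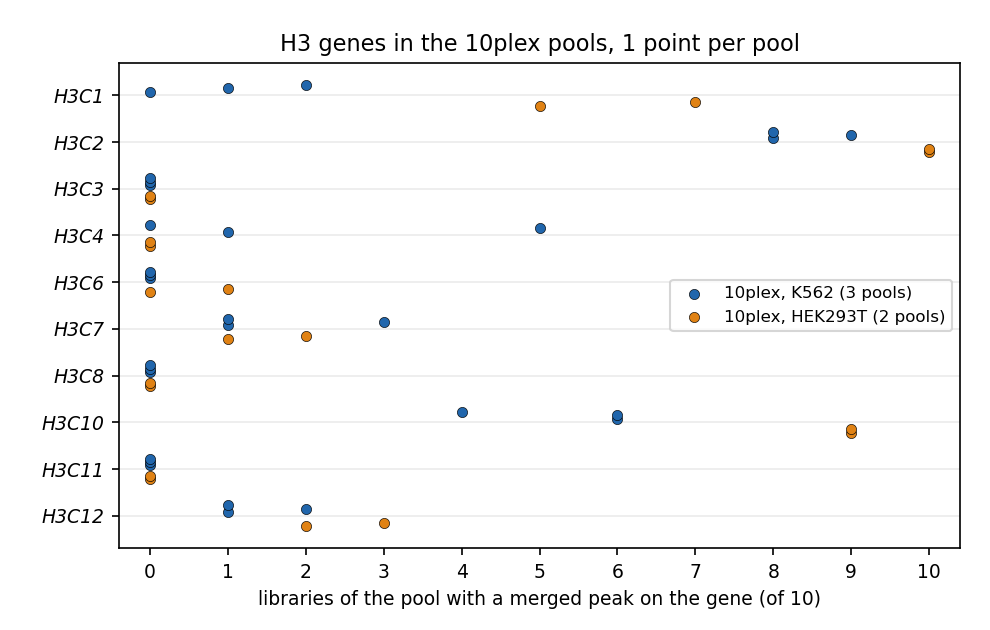
Number of libraries, of the 10 in a pool, with a merged peak on each H3 gene, with 1 point per pool. H3C1, H3C2 and H3C10 were higher in both HEK293T pools than in the 3 K562 pools, and H3C4 had peaks in K562 pools alone.

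The other histone families show how much of the SLBP signal H3 took. With touching peaks counted once, H3 genes held 10.8% and 12.4% of the SLBP reads on replication-dependent histone genes, H4 26.7% and 29.0%, H2B 25.7% and 26.1%, H2A 19.2% and 18.9%, and the linker histones H1 17.7% and 13.7%. The 10 H3 members held the lowest share of the 5 groups in both replicates. H2A, H2B and H4 took every protein-coding gene with such a symbol, while H3C13, H3C14 and H3C15 lay outside the H3 members. The H3 share is therefore not that of every H3 gene. With reads of touching peaks counted in each, the H3 members held 6.11% and 16.1%. In replicate 2 that was more than H2A (15.1%) and H1 (13.4%). SLBP peaks fell on 7 and 6 of the 10 H3 members, 9 and 9 of 15 H4, 15 and 15 of 18 H2B, 15 and 14 of 17 H2A, and 6 and 4 of 6 H1 genes. In the 10plex K562 pools H3 held 5.65% to 6.45% of the histone reads, and in HEK293T 8.87% and 9.89%.

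Of 7 other H3 genes, which include the replacement variants H3-3A and H3-3B, 4 and 2 held an SLBP peak, with 0.104% and 0.123% of the reads. Of 19 genes for factors that act on the 3′ end of histone mRNAs, among them SLBP itself, NPAT and the U7 snRNP proteins LSM10 and LSM11, 3 and 1 held an SLBP peak and 1 in each replicate an enriched peak. In the K562 pools the mean per library was 7.9 to 11.5 of these 19 genes.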

How the data were processed

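ABC libraries of 9 samples (54 libraries) were analysed, grouped by the antibody, cell line and replicate in their labels. The labels name GRCh38, STAR 2.7.6 and cutadapt 2.8. The authors removed PCR duplicates, called peaks with CLIPper and deposited a p-value and, in some lists, a display score per peak. For merged peaks they deposited the log2 fold over an external background and its −log10 P, at most 400. Their methods list RNA-seq and the size-matched input of eCLIP as such backgrounds, and the background differed between antibodies. For the CC, K562 replicate 3 has a deposited −log10 P and log2 fold, and the other pools an unsigned chi-squared statistic in a text column, without peaks in repeats.

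Reads per peak came from the authors' peak names or were recovered from the ratio behind the fold, taking the smallest whole numbers where P was at its limit. Values over the CC were solved from the statistic, and 99.97% to 100% of calls were recovered on data simulated from K562 replicate 3. The calls of the other pools, those of HEK293T among them, were not checked in this way. Peaks were placed on the single-exon histone mRNA of GENCODE release 44 by an overlap of 1 nt on the same strand. The stem-loop was searched within 120 nt after the stop codon with at most 1 mismatch. Shares are of the reads in merged peaks, in which a read that crosses touching peaks counts in each; reads outside peaks were not used. Enriched peaks had P below 0.001 and a fold above 8. Errors are SDs over samples, with pools entering as means over their libraries. Tests were exact permutations over samples, or of antibody labels within pools with Benjamini-Hochberg adjustment, at a threshold of 0.05. All 10 members were named, with the SLBP peak of most reads per gene (ties to the nearest to the stem-loop), the H3 gene with most K562 reads per antibody and the 3 genes most alike in pattern. The members and lists were chosen with earlier results of these data known. The alternatives were touching peaks counted once, enriched peaks alone, at least 50% of the peak inside the gene, peaks in place of reads, 50 nt added after the gene, other limits and windows, a replicate block and each sample left out, and, chosen after seeing the data, the whole annotated gene span and leaving out 1 IGF2BP2 library. Python 3.11.15, pandas 2.3.3, numpy 2.4.6, SciPy 1.17.1, matplotlib 3.10.9 and bedtools 2.31.1 were used. The eCLIP libraries were not analysed here.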

Additional observations from a re-analysis of the deposited data

Results flagged for a closer look

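Reads of FAM120A lay in the annotated span of H3C10 behind its histone mRNA, a stretch that the comparisons above leave out. FAM120A held 271, 788 and 276 reads there in K562 replicates 1, 2 and 3, in 13 merged peaks that began 61 to 507 nt after the end of the mRNA, and 12 of these peaks were enriched over the CC, with log2 folds of 3.22 to 5.17. In HEK293T it held 6 reads in replicate 1 and no peak in replicate 2. The other antibodies of the pools held at most 8 reads in a library there, and SLBP held none. No other histone mRNA lies in this stretch.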

How the results depend on the processing

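Of 112 recomputed values, 107 counted as unchanged and 5 moved. The tests over samples could not change their side of the threshold, because their smallest possible p with all samples was 0.1 or 0.333. For them only the direction of the difference was open to change, and it stayed the same. Counts, distances and folds have no such threshold and were judged by the size of the change. A distance or fold counted as unchanged when it moved by no more than the SD of the 2 SLBP replicates. Leaving out 1 of the 2 replicates cannot move the distance or the fold of a single gene by more than that. Those recomputed values are among the 107 and were also fixed in advance. Without the IGF2BP2 library of 10plex K562 replicate 1, 1 antibody (DDX3) in place of 0 had a higher H3 share than the other 9 in K562. With 1 peak per gene the median distance of SLBP peaks to the stem-loop was −5.38 nt in place of −10.4. The 20 pairs of member and library with a CC-enriched peak became 6 with P below 1e-05 and a fold above 16, 46 with any fold above 1, and 13 without 10plex K562 replicate 2. Leaving out each sample in turn, the SLBP share exceeded that of the K562 pools by 1.90 to 6.27 points and that of RBFOX2 singleplex by 1.91 to 6.28, its stem-loop share that of the pools by 50.4 to 79.0 points, and its enriched members by 4.3 to 4.55. The K562 minus HEK293T difference in members ran from −1.3 to −0.733, the CC-enriched pairs from 13 to 18, the distance from −11.5 to −9.25 nt, and the median over genes of the SLBP log2 fold at stem-loops from 8.73 to 10.18. With peaks in place of reads the SLBP excess was 0.590 points over RBFOX2 and 0.579 over the pools, in the same direction. The whole annotated span raised the SLBP share to 3.11% and 7.65%, with reads that lie on the mRNA of H2AC17 inside the span of H3C12. The replicate numbers of singleplex and 10plex samples share only a number; with it as a block the differences were 4.09 points (both shares), 55.5 points (stem-loop) and 4.35 genes, each with an exact p of 0.5 over 2 pairs, the smallest possible. Without the pool as a block, p for DDX3 was 0.0436 in K562 and 0.00526 in HEK293T by permutation. After Benjamini-Hochberg adjustment these were 0.266 and 0.0526, and 0 antibodies passed in either cell line. Depth limits H3C1, H3C3 and most CC-enriched sites, which rest on 3 to 21 reads, and the members without a peak.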

Other observations

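Over all 54 libraries, the genes outside the list whose share of reads was most like that of the summed H3 members were ENSG00000291336 (Spearman's rho 0.80), H2BC5 (0.80) and CHCHD10 (0.77), among 13459 genes with a peak in at least 10 libraries. ENSG00000291336 is an unconfirmed transcript whose span covers a stretch of the histone cluster, with a member inside it on the same strand. H2BC5 encodes a histone H2B, and CHCHD10 a mitochondrial protein. The libraries share pools and depth, and the correlations are a description.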
